A study of Rattus norvegicus with 24 samples.

Results

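The arachidonic acid cytochromes P450 and the soluble epoxide hydrolase were described in left kidneys of congenic and Dahl salt-sensitive rats by taking every probe set whose single platform gene symbol was one of 10 genes: Cyp4a1, Cyp4a2, Cyp4a3, Cyp4a8, Cyp4f1, Cyp4f4, Cyp2c23, Cyp2j3, Cyp2j4 and Ephx2. This gave 11 of the 31142 probe sets of both arrays, 10 on RAE230A and 1 on RAE230B, for 9 of the 10 genes (of 13810 genes with a probe set of their own on the arrays). No probe set carried Cyp4a2 as its only symbol. A probe set on RAE230B that the platform annotation gives to Cyp4a3 and Cyp4a2 together is shown beside the members and not counted among them. The genes lie on rat chromosomes 1, 5, 7 and 15 in the RefSeq annotation, none of them on chromosome 3.

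Male rats of 3 strains were compared: the congenic substrains ET3x1 and ET3x2, and the inbred Dahl salt-sensitive strain SS/jr, called S. As background, congenic rats of this kind carry a chromosome segment of the Dahl salt-resistant strain on the S genome; the ends of the segments are not given in the sources used here. All rats, S included, were raised on 0.4% NaCl chow to an age of 39 to 41 days and were then given 2% NaCl for 28 days, until 67 to 69 days of age. Kidney RNA of 3 rats went into each ET3x1 and ET3x2 pool and that of 2 rats into each S pool, with 4 pools per strain (ET3x1 pools E to H, ET3x2 pools I to L, S pools A to D). A pool is a replicate, and single rats were not measured. All groups had the higher salt at the end, so that an effect of salt itself was not measured.

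Cytochromes of the CYP4A and CYP4F families add a hydroxyl group to the end of the arachidonic acid chain and make 20-HETE, which constricts renal arterioles and inhibits sodium reabsorption in the proximal tubule and thick ascending limb. Epoxygenases of the CYP2C and CYP2J families turn the same fatty acid into epoxyeicosatrienoic acids, which relax renal vessels and inhibit the epithelial sodium channel, and soluble epoxide hydrolase, encoded by Ephx2, converts these epoxides to less active diols. A low renal formation of 20-HETE has long been described in Dahl salt-sensitive rats, which is why these transcripts are of interest in a salt-fed S kidney.

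The rat Cyp4a genes are close relatives in a cluster on chromosome 5. The start regions of 3 of them are shown because their transcripts are set side by side in the results, as 250 bases before to 50 after the annotated start, from RefSeq on GRCr8 and on the minus strand: Cyp4a2 at chr5:134170859-134171158, Cyp4a3 at chr5:134352187-134352486 and Cyp4a8 at chr5:133970177-133970476. Capitals mark AGGTCA, the core motif bound by nuclear receptors such as PPAR-alpha.
Cyp4a2: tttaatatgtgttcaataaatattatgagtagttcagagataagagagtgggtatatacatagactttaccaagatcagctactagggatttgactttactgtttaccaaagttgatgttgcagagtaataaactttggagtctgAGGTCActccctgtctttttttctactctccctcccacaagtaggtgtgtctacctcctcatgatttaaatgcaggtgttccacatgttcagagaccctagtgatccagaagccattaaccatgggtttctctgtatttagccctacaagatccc
Cyp4a3: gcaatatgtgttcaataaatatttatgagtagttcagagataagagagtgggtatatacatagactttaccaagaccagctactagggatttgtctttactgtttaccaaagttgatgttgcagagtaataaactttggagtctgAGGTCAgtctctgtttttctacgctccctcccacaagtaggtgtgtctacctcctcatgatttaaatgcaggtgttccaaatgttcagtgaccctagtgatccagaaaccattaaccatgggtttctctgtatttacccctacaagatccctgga
Cyp4a8: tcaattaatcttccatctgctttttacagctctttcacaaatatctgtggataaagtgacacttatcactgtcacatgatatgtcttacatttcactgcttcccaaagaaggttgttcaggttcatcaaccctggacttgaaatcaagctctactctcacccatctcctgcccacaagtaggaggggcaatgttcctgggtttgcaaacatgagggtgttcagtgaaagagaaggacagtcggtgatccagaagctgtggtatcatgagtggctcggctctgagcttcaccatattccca
In a global alignment the Cyp4a2 and Cyp4a3 windows shared 284 of 305 columns (93.1%), while Cyp4a8 shared 55.4% of columns with Cyp4a2 and 55.6% with Cyp4a3. The core motif began at position −105 from the start, in the direction of the gene, in both Cyp4a2 and Cyp4a3. Searched on both strands, AGGTCA was held by 16.2% of 33469 promoter windows of this length and was not found in that of Cyp4a8, Cyp4f1, Cyp2c23, Cyp2j3 or Cyp2j4. The paired element AGGTCANAGGTCA, which contains the core motif, and the letters TATAAA were found in none of the 7 member windows, against 0.0538% and 14.2% of all windows. An exact match as rare as the paired element would be missing from nearly any 7 windows. Its absence therefore says little about these genes. Inexact matches and bases outside the windows were not searched. Windows of Cyp4a1, Cyp4f4 and Ephx2 are not shown. Probe sequences were not analysed here, so whether a probe set separates Cyp4a2 from Cyp4a3 was not tested.

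The deposited values were treated as log2 signals. Of the 11 probe sets 9 had a mean over the 12 pools above the level below which probe sets were left out of testing. This level was 7.52 on RAE230A and 6.85 on RAE230B, the 30th percentile of each array. The 2 below it, a Cyp4f4 and a Cyp2j3 probe set on RAE230A, are given as signals without a test. In the limma fit over all 21799 probe sets, with Benjamini-Hochberg adjustment within array and contrast, 0 of 9 passed an adjusted p of 0.05 in any of the 3 comparisons. Over all probe sets, calls made up 0.440% for ET3x1 against S. They made up 0.344% for ET3x2 against S and 1.48% for ET3x2 against ET3x1. At an unadjusted p under 0.05 stood 2 members for ET3x1 against S, beside 11.8% of all probe sets. For ET3x2 against S there were 0 (all probe sets 10.9%), and for ET3x2 against ET3x1 there was 1 (13.1%). Pools of both groups did not overlap for 1 tested member in the first comparison and 0 in the others, beside 6.40%, 5.95% and 9.15% of all tested probe sets. The smallest adjusted p of a member was 0.276 for ET3x1 against S, 0.544 for ET3x2 against S and 0.228 for ET3x2 against ET3x1. The SE of a difference lay between 0.0692 and 0.114 (log2, n = 4 pools each), and over all 27 differences the 95% intervals ran from −0.52 to 0.50, that is from 0.699-fold to 1.41-fold. These bounds are the outermost ends over all members and comparisons, and each member has its own, narrower or equal, interval. In bulk kidney RNA, fewer cells of a type and less RNA per cell cannot be told apart.

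**Figure D1:**
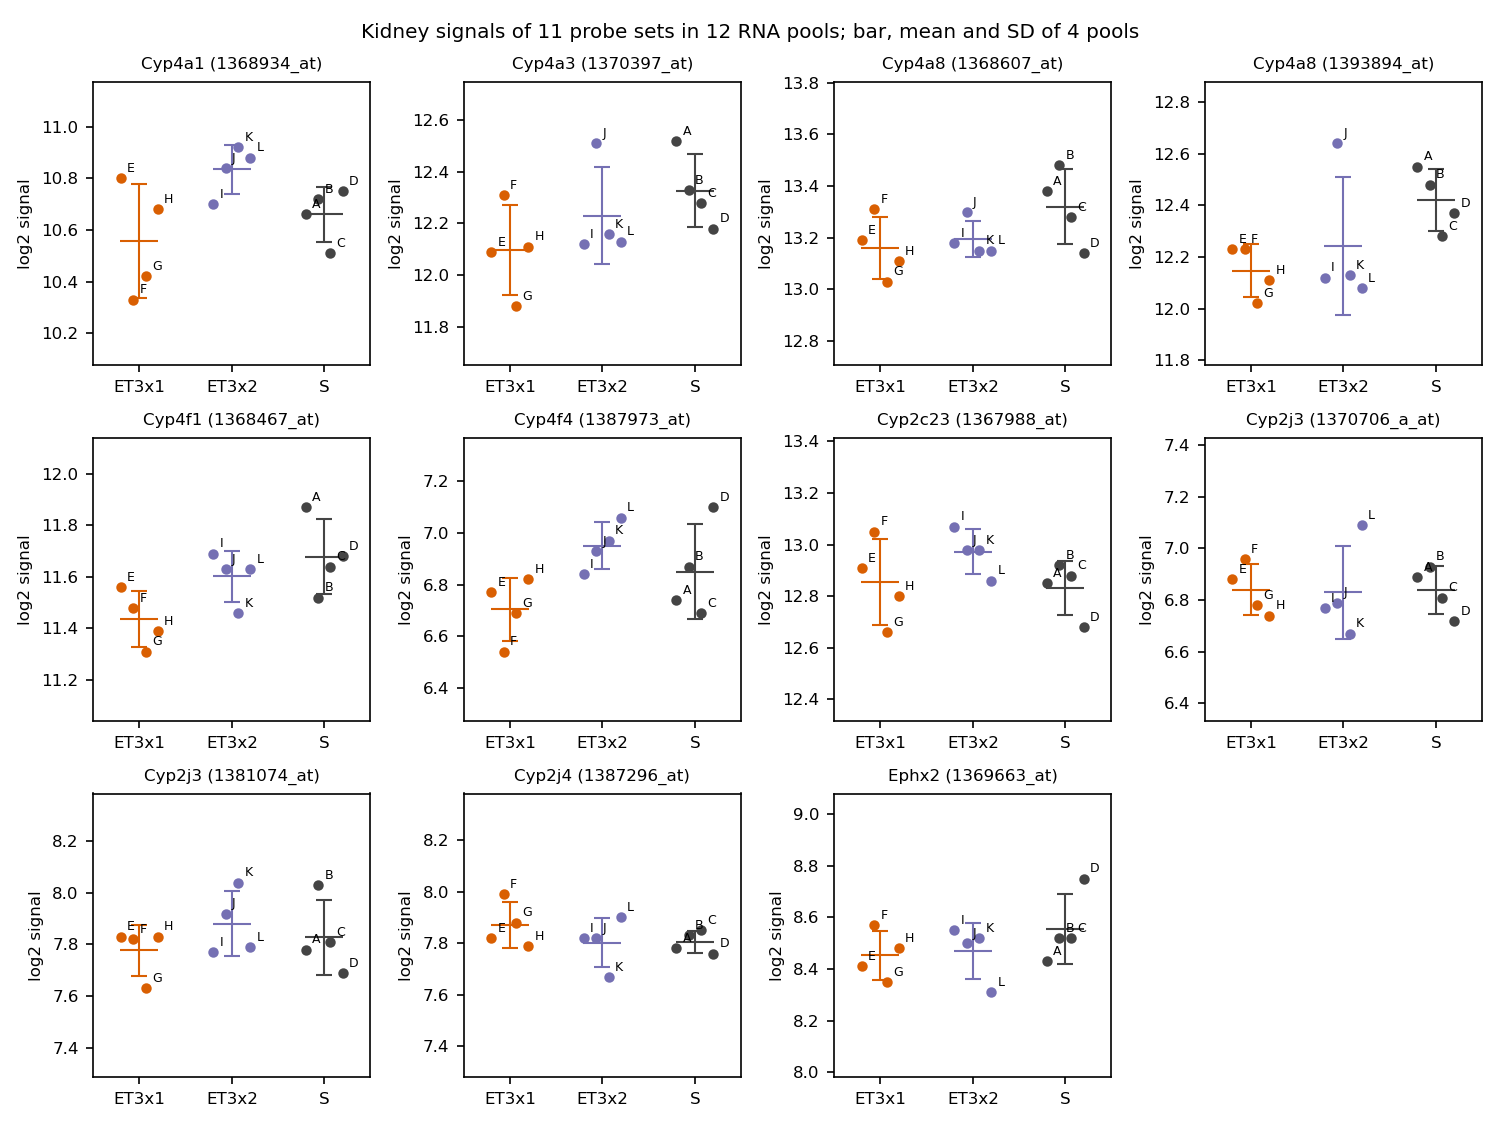
Log2 signal (vertical axis, each panel spanning 1.1 units) of the 11 probe sets in every RNA pool, by strain; letters are pools, and the bar gives the mean and SD of 4 pools. The strains overlap in nearly every panel, and the second Cyp4a8 probe set is the tested one in which all 4 ET3x1 pools, 12.02 to 12.23, lie below all 4 S pools, 12.28 to 12.55.

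Among the omega-hydroxylases, Cyp4a8 gave the lowest value for ET3x1 against S. The gene has 2 probe sets on RAE230A, and the second one, with the lower mean, had 12.23, 12.23, 12.02 and 12.11 in ET3x1 pools E to H, 12.12, 12.64, 12.13 and 12.08 in ET3x2 pools I to L, and 12.55, 12.48, 12.28 and 12.37 in S pools A to D. Every ET3x1 pool lay below every S pool, and in ET3x2 pools I, K and L lay below S while pool J had the highest signal of the 12. The difference was −0.27 for ET3x1 against S (SE 0.114, 95% interval −0.52 to −0.03, limma adjusted p = 0.331). It was −0.18 for ET3x2 against S (adjusted p = 0.591) and 0.10 for ET3x2 against ET3x1 (adjusted p = 0.733). The exact permutation test of ET3x1 against S gave p = 0.0286, two-sided and unadjusted, the smallest that 4 against 4 pools allow. It was the 1 of 9 tested members whose ET3x1 pools all lay below the S pools, beside 1.99% of all probe sets.

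The leading Cyp4a8 probe set, with the higher mean, had 13.19, 13.31, 13.03 and 13.11 in the ET3x1 pools, 13.18, 13.30, 13.15 and 13.15 in the ET3x2 pools, and 13.38, 13.48, 13.28 and 13.14 in the S pools. The groups overlapped, with S pool D as low as ET3x1 pools and S pools A and B as the highest of the 12. The difference was −0.16 for ET3x1 against S (SE 0.0827, adjusted p = 0.424), −0.12 for ET3x2 against S (adjusted p = 0.606) and 0.04 for ET3x2 against ET3x1 (adjusted p = 0.870). Both Cyp4a8 probe sets varied together over the 12 pools, with Pearson r = 0.76 (permutation p = 0.00406, adjusted p = 0.0122 over 3 pairs of probe sets) and Spearman rho = 0.76 (permutation p = 0.00533, adjusted 0.016). Their r was 0.65 with strain means removed, 0.66 without pools A and B and 0.55 without pools A, B and J.

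Cyp4a3, an omega-hydroxylase of the same cluster on chromosome 5, had signals of 12.09, 12.31, 11.88 and 12.11 in the ET3x1 pools, 12.12, 12.51, 12.16 and 12.13 in the ET3x2 pools, and 12.52, 12.33, 12.28 and 12.18 in the S pools. ET3x1 pool F lay inside the S range and pool J was again the one high ET3x2 pool. The difference was −0.23 for ET3x1 against S (SE 0.111, 95% interval −0.46 to 0.01, adjusted p = 0.397), −0.10 for ET3x2 against S (adjusted p = 0.791) and 0.13 for ET3x2 against ET3x1 (adjusted p = 0.608).

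The probe set given to Cyp4a3 and Cyp4a2 together had 12.97, 13.32, 12.91 and 13.02 in the ET3x1 pools, 12.95, 13.05, 13.24 and 13.17 in the ET3x2 pools, and 12.91, 12.91, 13.04 and 13.11 in the S pools. Here the S pools were not the higher ones, at 0.06 for ET3x1 against S (SE 0.103, 95% interval −0.16 to 0.29, adjusted p = 0.872) and 0.11 for ET3x2 against S (adjusted p = 0.759). Over the 12 pools it did not follow the Cyp4a3 probe set (r = 0.06, permutation p = 0.86, Spearman rho = 0.11, permutation p = 0.732). Their r was 0.19 within strains, 0.38 without pools A and J and 0.68 without pools A, B and J. How much of this signal came from Cyp4a2 cannot be told apart from Cyp4a3 in these data.

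Cyp4a1, the clofibrate-inducible omega-hydroxylase, had its highest mean in ET3x2. Its signals were 10.80, 10.33, 10.42 and 10.68 in the ET3x1 pools, 10.70, 10.84, 10.92 and 10.88 in the ET3x2 pools, and 10.66, 10.72, 10.51 and 10.75 in the S pools. ET3x2 pools J, K and L stood above all other pools, and ET3x1 pools F and G were the lowest. ET3x2 exceeded ET3x1 by 0.28 (SE 0.104, 95% interval 0.05 to 0.50, 1.21-fold, unadjusted p = 0.0186, adjusted p = 0.228). The difference was 0.17 for ET3x2 against S (adjusted p = 0.544) and −0.10 for ET3x1 against S (adjusted p = 0.70). In the exact permutation test ET3x2 against ET3x1 gave p = 0.0571, two-sided, and missed 0.05.

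Cyp4f1, a member of the CYP4F family that omega-hydroxylates arachidonic acid and leukotrienes, had the smallest p of the members for ET3x1 against S. Its signals were 11.56, 11.48, 11.31 and 11.39 in the ET3x1 pools, 11.69, 11.63, 11.46 and 11.63 in the ET3x2 pools, and 11.87, 11.52, 11.64 and 11.68 in the S pools. ET3x1 pools F, G and H lay below all S pools, and pool E lay between S pools B and C. The difference was −0.24 (SE 0.0888, 95% interval −0.43 to −0.05, 0.845-fold, unadjusted p = 0.0158, adjusted p = 0.276, exact permutation p = 0.0571). It was −0.07 for ET3x2 against S (adjusted p = 0.796) and 0.17 for ET3x2 against ET3x1 (adjusted p = 0.391).

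Cyp4f4, the other CYP4F member, was dim, with 6.54 to 6.82 in the ET3x1 pools, 6.84 to 7.06 in the ET3x2 pools and 6.69 to 7.10 in the S pools, all under the level of 7.52. The ET3x2 pools lay above the ET3x1 pools without overlap, while the S pools spanned most of both ranges. Among tested probe sets 9.15% had no overlap in this comparison, in either direction, and the share among dim ones was not counted. The Cyp4f4 probe set was not tested and no fold is given, since a fold at such dim signals cannot be sized.

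The epoxygenase Cyp2c23, the main renal epoxygenase of the rat, had overlapping signals in the strains. They were 12.91, 13.05, 12.66 and 12.80 in the ET3x1 pools, 13.07, 12.98, 12.98 and 12.86 in the ET3x2 pools, and 12.85, 12.92, 12.88 and 12.68 in the S pools. The ET3x1 pools spanned more than the whole S range, and ET3x2 pools I, J and K stood above all S pools. The difference was 0.02 for ET3x1 against S (SE 0.0872, 95% interval −0.17 to 0.20, adjusted p = 0.945), 0.14 for ET3x2 against S (95% interval −0.05 to 0.32, 1.10-fold, adjusted p = 0.576) and 0.12 for ET3x2 against ET3x1 (adjusted p = 0.544). A difference of more than 1.15-fold between ET3x1 and S, in favour of ET3x1, lay outside the interval.

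Of the CYP2J epoxygenases, Cyp2j4 had the smallest SE of the members. Its signals were 7.82, 7.99, 7.88 and 7.79 in the ET3x1 pools, 7.82, 7.82, 7.67 and 7.90 in the ET3x2 pools, and 7.78, 7.83, 7.85 and 7.76 in the S pools. The 3 strains overlapped, with a difference of 0.06 for ET3x1 against S (SE 0.0692, 95% interval −0.08 to 0.21, adjusted p = 0.714), a ratio of 0.999 for ET3x2 over S (95% interval 0.901 to 1.11, adjusted p = 0.996) and −0.07 for ET3x2 against ET3x1 (adjusted p = 0.690).

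Cyp2j3 was measured on both arrays. On RAE230B its probe set had 7.83, 7.82, 7.63 and 7.83 in the ET3x1 pools, 7.77, 7.92, 8.04 and 7.79 in the ET3x2 pools, and 7.78, 8.03, 7.81 and 7.69 in the S pools. The 3 strains overlapped, at −0.05 for ET3x1 against S (SE 0.0833, adjusted p = 0.880), 0.06 for ET3x2 against S (adjusted p = 0.863) and 0.10 for ET3x2 against ET3x1 (adjusted p = 0.664). On RAE230A its probe set was below the level for testing, with 6.74 to 6.96 in ET3x1, 6.67 to 7.09 in ET3x2 and 6.72 to 6.93 in S. The 2 probe sets did not vary together over the pools (r = 0.00, permutation p = 1.0, Spearman rho = 0.01, permutation p = 0.973, 0.11 without pools F and L).

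Ephx2, the hydrolase that ends the action of the epoxides, had 8.41, 8.57, 8.35 and 8.48 in the ET3x1 pools, 8.55, 8.50, 8.52 and 8.31 in the ET3x2 pools, and 8.43, 8.52, 8.52 and 8.75 in the S pools. S pool D was the highest of the 12 and the other pools of the 3 strains overlapped. The difference was −0.10 for ET3x1 against S (SE 0.0848, 95% interval −0.28 to 0.08, adjusted p = 0.621), −0.08 for ET3x2 against S (adjusted p = 0.756) and 0.02 for ET3x2 against ET3x1 (adjusted p = 0.934).

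**Figure D2:**
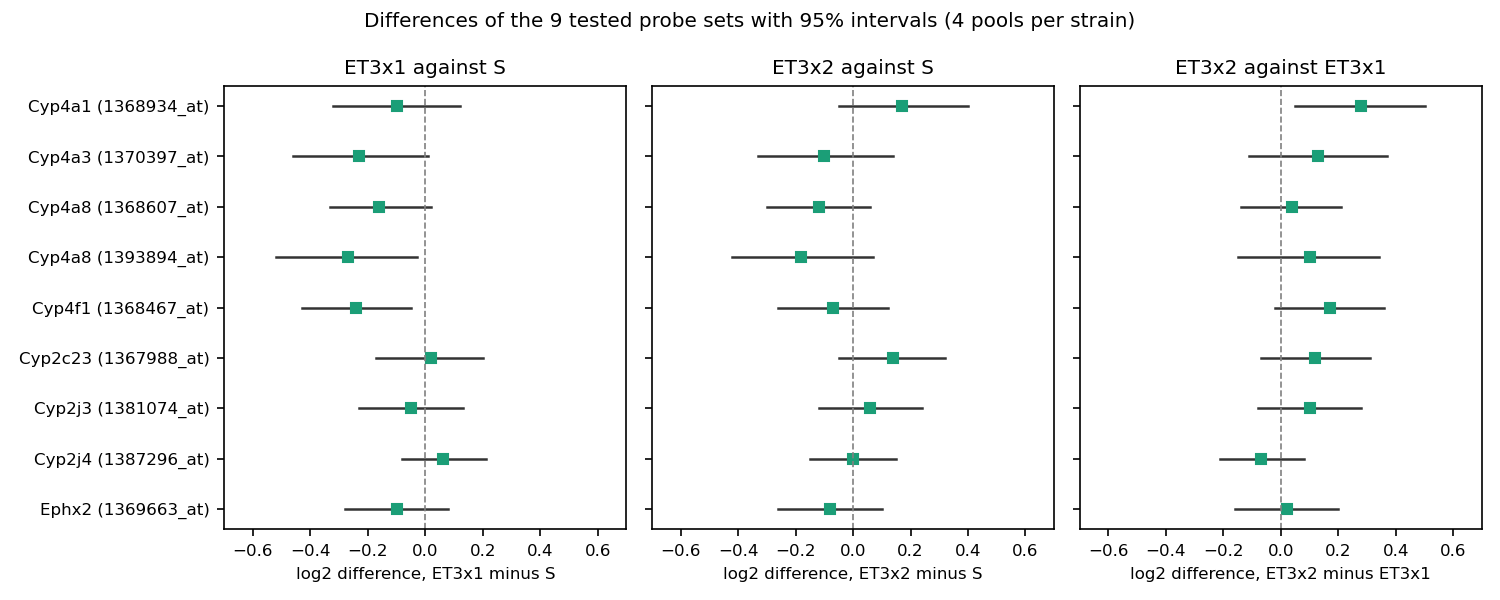
Log2 differences (squares) of the 9 tested probe sets with 95% intervals from the limma fit, for ET3x1 minus S, ET3x2 minus S and ET3x2 minus ET3x1. The intervals of the second Cyp4a8 probe set (−0.27) and Cyp4f1 (−0.24) for ET3x1 against S and of Cyp4a1 for ET3x2 against ET3x1 exclude 0 before adjustment, and none of the 27 differences passed after it.

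Set side by side, 7 of the 9 tested probe sets had a negative difference in ET3x1 against S, with a median of −0.10, where all 21799 probe sets had 51.6% negative. In ET3x2 against S 6 of 9 were negative, with a median of −0.07, beside 41.0% of all probe sets with a median of 0.02. In ET3x2 against ET3x1 1 of 9 was negative, with a median of 0.10, beside 39.2% and a median of 0.03. These comparisons share pools, so that their values for the members are not independent of each other, and probe sets of related genes are not independent either. The 5 tested omega-hydroxylase probe sets of the members were negative in ET3x1 against S, from −0.27 to −0.10, while the probe set shared by Cyp4a3 and Cyp4a2, not counted among them, was at 0.06. The epoxygenases Cyp2c23, Cyp2j4 and Cyp2j3 were at 0.02, 0.06 and −0.05.

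The members did not vary as one group from pool to pool. There were 21 pairs of 7 leading probe sets on RAE230A and 7 relations to the actin control signal, 28 relations in all. Of the pairs, Cyp4a3 and Cyp4a8 varied together most closely over the 12 pools (r = 0.82, permutation p = 0.00082, adjusted p = 0.0137, Spearman rho = 0.80, permutation p = 0.00321, adjusted 0.0899). The relation held with strain means removed (r = 0.78, permutation p = 0.00525, adjusted 0.049) and without pools A and J (r = 0.86). Cyp4a1 followed neither of them (r = 0.10 with Cyp4a3, permutation p = 0.759, and r = −0.06 with Cyp4a8, permutation p = 0.855). Cyp2c23 and Cyp4a8 had r = 0.46 over all pools (permutation p = 0.134) and 0.80 within strains (permutation p = 0.00701, adjusted 0.0491), with 0.08 over all pools without D and G and 0.68 without A, B and J (exact permutation p = 0.039, unadjusted). Cyp4a1 and Cyp2j4 had r = −0.66 (permutation p = 0.0178, adjusted 0.125, Spearman rho = −0.42, permutation p = 0.176), which was −0.17 without pools F and K. Ephx2 had no relation past the threshold with any of the others.

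**Figure D3:**
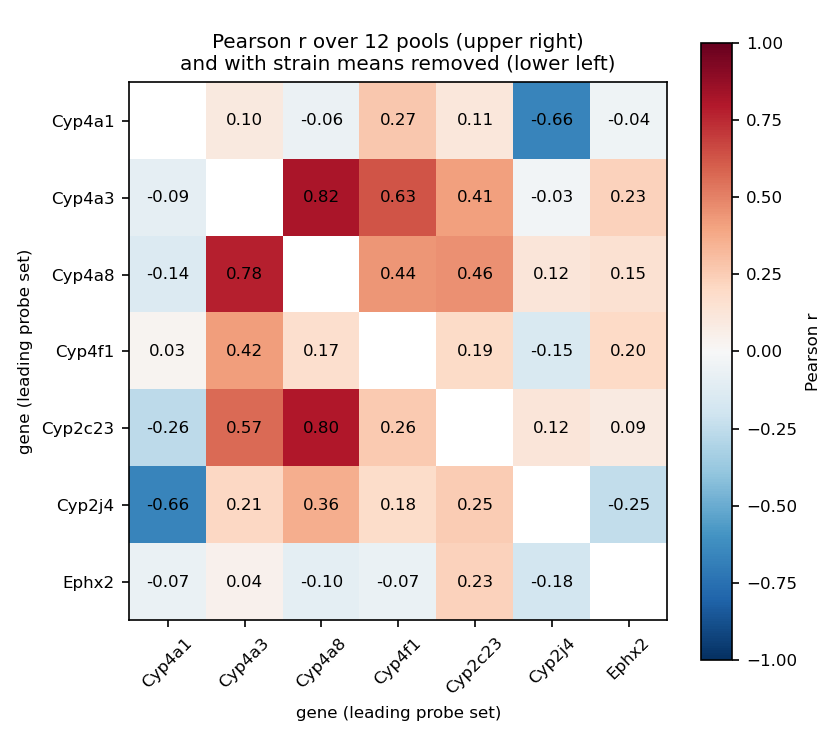
Pearson r between the leading probe sets of 7 genes over the 12 pools (upper right) and with strain means removed (lower left); colour gives r from −1 to 1. Cyp4a3 and Cyp4a8 are at 0.82 and 0.78, Cyp2c23 and Cyp4a8 at 0.46 and 0.80, and Cyp4a1 is near 0 with Cyp4a3 and Cyp4a8.

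Cyp4a3 and Cyp4a8 also moved with the actin 5′ minus 3′ control signal, which is lower where RNA or its copies are shorter. On RAE230A it was −1.98, −1.66, −2.02 and −1.69 in the ET3x1 pools, −1.72, −1.14, −1.70 and −1.83 in the ET3x2 pools, and −1.27, −1.27, −1.81 and −2.10 in the S pools, with pool J of ET3x2 and pools A and B of S the highest. Its r was 0.82 with Cyp4a3 (permutation p = 0.00098, adjusted p = 0.0137, Spearman rho = 0.71, permutation p = 0.0125, adjusted 0.117). It was 0.77 with Cyp4a8 (permutation p = 0.00308, adjusted p = 0.0287, Spearman rho = 0.71, permutation p = 0.0116, adjusted 0.117). With strain means removed, r was 0.82 for Cyp4a3 (permutation p = 0.00048, adjusted 0.0134) and 0.83 for Cyp4a8 (permutation p = 0.00394, adjusted 0.049). Without the 2 pools farthest from the median, r was 0.62 for Cyp4a3 and 0.61 for Cyp4a8. Within the 9 pools other than A, B and J it was 0.47 (exact permutation p = 0.207) and 0.46 (exact permutation p = 0.216), while that of Cyp4a3 with Cyp4a8 was 0.90 (exact permutation p = 0.00285), all unadjusted. Pools A, B and J had the highest actin signals, so leaving them out narrows the range of that signal. The lower r with actin therefore does not test whether the relation rests on those pools. Cyp4a1 (r = 0.15, permutation p = 0.64), Cyp4f1 (r = 0.30, permutation p = 0.34) and Ephx2 (r = −0.06, permutation p = 0.859) did not pass, nor did Cyp2j4 (r = −0.06, permutation p = 0.845). Cyp2c23 had r = 0.47 with the actin signal over the 12 pools (permutation p = 0.124, adjusted 0.526), 0.05 without pools D and G, and 0.76 within the 9 pools (exact permutation p = 0.0211, unadjusted), higher than over all pools. Without pools A, B and J the difference of ET3x1 against S was −0.13 for Cyp4a3, −0.17 and −0.05 for the second and the leading Cyp4a8 probe set, and −0.23 for Cyp4f1. With the actin signal as a covariate it was −0.13, −0.18, −0.09 and −0.24 in the same order, beside −0.23, −0.27, −0.16 and −0.24 with all pools and no covariate. What the actin signal has to do with these values was not tested further.

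**Figure D4:**
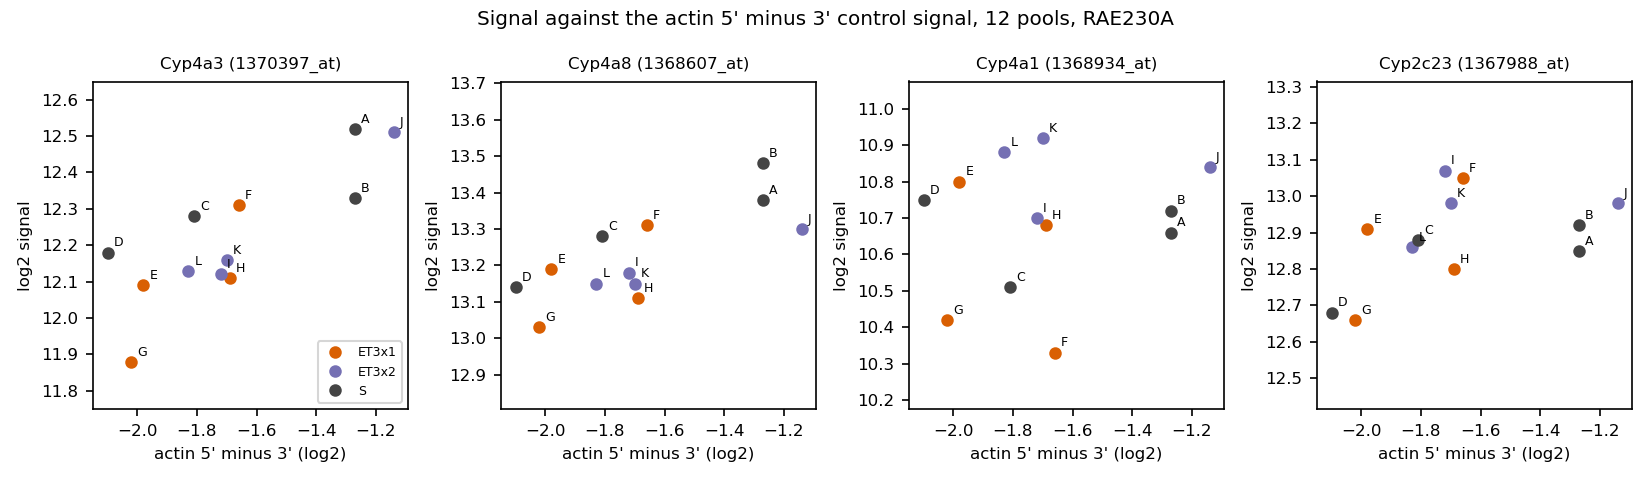
Log2 signal of 4 genes against the actin 5′ minus 3′ control signal (log2) on RAE230A, 1 point per pool, coloured by strain and lettered by pool. Pools A, B and J lie at the right and hold high Cyp4a3 and Cyp4a8 signals, and no such order is seen for Cyp4a1.

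The genes whose pattern over the 12 pools was most like that of each member were found by Pearson r on the same array, as a description with no p. For Cyp4a8 they were Aldh6a1 (r = 0.95), an enzyme of valine breakdown, Glud1 (0.94), glutamate dehydrogenase, and Cd36 (0.94), a fatty acid transporter. For Cyp4a3 they were Vps4b (0.98), Mtus1 (0.95) and Nckap1 (0.94). For Cyp2c23 they were Car2 (0.95), a carbonic anhydrase, Zfp706 (0.95) and Hadh (0.94), an enzyme of fatty acid oxidation, and for Cyp4a1 Sbf1 (0.90), Cdc25b (0.88) and Gemin4 (0.87). For Cyp4f1 they were Rassf8 (0.92), Zdhhc2 (0.90) and Litaf (0.89), for Cyp2j4 Dync2li1 (0.91), Pafah1b2 (0.87) and Lipa (0.87), for Cyp2j3 Cops7b (0.95), Rab15 (0.92) and Dnajb5 (0.91), and for Ephx2 Lemd2 (0.86), Fcho1 (0.85) and D430041D05Rikl (0.84). Without pools A, B and J each of these r was between 0.85 and 0.98. The genes were picked as the highest r of all tested genes on the array, so that high values come from the choice itself. The 9 pools are part of the 12 used to pick them and give no separate check.

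Of 93 other genes of the pathway and its surroundings 64 were tested, and 0 passed in each of the 3 comparisons in the limma fit. Of all 11218 genes 0.232% passed for ET3x1 against S, 0.205% for ET3x2 against S and 1.09% for ET3x2 against ET3x1. At an unadjusted p under 0.05 stood 4, 8 and 13 of the 64 in the same order, beside 1342, 1307 and 1500 of all genes. Their median difference was −0.02, 0.01 and 0.06, beside 0.00, 0.03 and 0.03 over all genes. The genes named in the next sentences are the 2 of each list with the smallest p in a comparison, and none of them passed.

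Of 10 other P450 genes tested, Cyp2e1, which oxidises ethanol and fatty acids, gave 0.43 for ET3x2 against S (SE 0.11, adjusted p = 0.16) and 0.33 for ET3x2 against ET3x1 (adjusted p = 0.176). Cyp2c11, a male-specific P450 with epoxygenase activity, gave 0.23 for ET3x1 against S (adjusted p = 0.478) and −0.36 for ET3x2 against ET3x1 (adjusted p = 0.228), Cyp1a2 0.17 for ET3x2 against S (adjusted p = 0.419), and Cyp1a1 −0.15 for ET3x1 against S (adjusted p = 0.409). Of 7 electron donors and other epoxide hydrolases, the P450 reductase gene Por gave 0.26 for ET3x2 against ET3x1 (adjusted p = 0.252) and Ephx1, microsomal epoxide hydrolase, also 0.26 (adjusted p = 0.433). Cyb5a, cytochrome b5, gave 0.19 for ET3x1 against S (adjusted p = 0.445), Cyb5b −0.13 for ET3x2 against S (adjusted p = 0.634), and Ephx4 −0.09 for ET3x1 against S (adjusted p = 0.597) and −0.05 for ET3x2 against S (adjusted p = 0.770).

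Of 10 genes that release or re-esterify arachidonic acid, the acyl-CoA synthetase gene Acsl1 gave 0.37 for ET3x1 against S (adjusted p = 0.234) and −0.37 for ET3x2 against ET3x1 (adjusted p = 0.162). The lysophospholipid acyltransferase genes were at −0.23 for Lpcat3 in ET3x1 against S (adjusted p = 0.442) and at 0.09 and 0.16 for Mboat7 in ET3x2 against S and against ET3x1 (adjusted p = 0.711 and 0.354), and the phospholipase gene Pla2g5 at 0.11 in ET3x2 against S (adjusted p = 0.568). Of 11 genes of the other arachidonic acid routes, prostacyclin synthase, Ptgis, came nearest to the threshold, at −0.35 for ET3x1 against S (SE 0.0749, adjusted p = 0.0845) and 0.28 for ET3x2 against ET3x1 (adjusted p = 0.0906). Ptgds, a prostaglandin D synthase, gave 0.34 for ET3x1 against S (adjusted p = 0.492) and 0.63 for ET3x2 against S (adjusted p = 0.264), and Ptges3 −0.24 for ET3x2 against S (adjusted p = 0.387) and for ET3x2 against ET3x1 (adjusted p = 0.278).

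PPAR-alpha is the nuclear receptor through which fatty acids and fibrates induce rat Cyp4a genes. Of 17 tested genes of its list, ET3x1 against S had 6 negative differences, and the other comparisons had 9 each. For ET3x1 against S the smallest p belonged to Hadha at −0.23 (adjusted p = 0.342) and Rxra at −0.17 (adjusted p = 0.358). For ET3x2 against S it belonged to Acadm at −0.31 (adjusted p = 0.269) and Ehhadh at 0.36 (adjusted p = 0.403), and for ET3x2 against ET3x1 to Cpt1b at −0.20 (adjusted p = 0.255) and Cpt1a at −0.21 (adjusted p = 0.295). Of 9 genes on which 20-HETE or the epoxides act, Slc12a1, the thick limb sodium-potassium-chloride cotransporter, gave −0.39 for ET3x2 against S (SE 0.106, adjusted p = 0.192) and −0.29 for ET3x2 against ET3x1 (adjusted p = 0.207). The sodium channel subunit gene Scnn1b gave −0.14 for ET3x1 against S (adjusted p = 0.395) and 0.23 for ET3x2 against ET3x1 (adjusted p = 0.135), Scnn1g −0.15 for ET3x1 against S (adjusted p = 0.444) and Scnn1a 0.20 for ET3x2 against S (adjusted p = 0.454).

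The tissue label was checked against cell markers. All 10 proximal tubule markers and all 5 of the thick ascending limb passed the signal filter. Of the liver genes on the arrays 2 of 5 passed, and of the adrenal cortex genes 1 of 4. Most genes pass this filter, 11218 of all 13810. All 4 fibroblast, all 4 intercalated cell, all 4 principal cell and all 3 smooth muscle genes passed. So did 5 of 6 leukocyte, 4 of 5 endothelium and 4 of 5 straight proximal tubule genes. Of the podocyte genes 3 of 4 passed, and of the distal convoluted tubule genes 2 of 3. These counts are therefore a weak check of the tissue label. The mean deviation of the 10 proximal tubule markers was −0.12 to 0.09 in the ET3x1 pools, −0.02 to 0.08 in the ET3x2 pools and −0.09 to 0.07 in the S pools. That of 4 tested markers of the straight proximal tubule, the segment known for CYP4A, was −0.24 to 0.07 in ET3x1, −0.06 to 0.14 in ET3x2 and 0.03 to 0.21 in S. For ET3x1 against S its 4 genes were at −0.56 for Slc22a7 (adjusted p = 0.173), −0.20 for Slc22a13 (0.486), −0.12 for Ggt1 (0.69) and 0.02 for Slc7a13 (0.943), so that Slc22a7 stood apart from the other three. The part of this segment in the Cyp4a values was not tested. Over all marker lists 1 gene was called, the intercalated cell proton pump subunit gene Atp6v1b1. It was at 0.33 in ET3x1 against S (SE 0.0692, limma adjusted p = 0.0483), where 0.232% of all genes were called. All its ET3x1 pools lay above all S pools, beside 6.40% of all probe sets without overlap in either direction. The other tested intercalated cell markers were not called, at 0.17 for Slc26a4 (adjusted p = 0.393), 0.10 for Foxi1 (0.714) and −0.15 for Slc4a1 (0.707).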

How the data were processed

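RNA of 12 kidney pools was hybridised by the submitters to Affymetrix RAE230A and RAE230B arrays, per the labels. The deposited tables hold 1 value per probe set and pool, treated here as log2 signal because the values lie between 4.10 and 15.2 and none is negative. Summarisation, background correction and normalisation are not given in the sources used here. Column medians were 8.50 to 8.61 on RAE230A and 7.55 to 7.62 on RAE230B, and no further scaling was applied. Arrays give no read depth, and their number limits the precision.

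Symbols came from the platform annotation, updated by gene identifier through RefSeq (GRCr8): 12783 of 15866 and 7564 of 15276 probe sets had 1 symbol, 312 and 100 several, 2771 and 7612 none. Promoter windows came from RefSeq too. The 57 control probe sets of each array and those under the 30th percentile were left out (11106 and 10693 tested). The models were fitted with limma 3.58.1 (trended eBayes) in R 4.3.3. The same fit was also run on simulated data with the means and spread of these data. Its outcome is not used here, and changes as small as the member differences were not simulated. No batch is given in the labels. P-values are two-sided, and those of the strain comparisons set a difference against the spread between pools. In the limma fit this spread was shared by the 3 strains, though S pools held 2 rats and the others 3. Exact permutation tests, correlations with 100000 permutations and figures used Python 3.11.15, SciPy 1.17.1 and matplotlib 3.10.9. The actin relations and the 9-pool values were added after seeing the data.

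The members and gene lists were chosen with earlier results of these data known. Every member probe set is described. A gene of a list is represented by its tested probe set with the highest mean. Of each pathway list every gene called is named, and where none is, the 2 with the smallest p. Cell marker lists have no such rule; the marker genes named were chosen after their values were seen. For each member the 3 most similar genes are named.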

Additional observations from a re-analysis of the deposited data

Results flagged for a closer look

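Among 33 sets of 4 pools (11 member probe sets in 3 strains), 3 held a pool far from the other 3 of its strain by Dixon's criterion (the gap to the nearest pool over the range, above its 95% critical value), where chance flags about 1 set in 20. ET3x2 pool J was at 12.51 for Cyp4a3, with the other ET3x2 pools at 12.12 to 12.16 (ratio 0.879). The same pool was at 12.64 for the second Cyp4a8 probe set, with the others at 12.08 to 12.13 (ratio 0.903). Pool J also had the highest actin 5′ minus 3′ signal of the 12, at −1.14 on RAE230A. Its part in both signals was not tested. ET3x1 pool G was at 7.63 for Cyp2j3 on RAE230B, with the others at 7.82 to 7.83 (ratio 0.961).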

How the results depend on the processing

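In 20 alternative fits (filters, scaling, variance prior, array weights, actin covariate, pools left out) no member probe set was called in any comparison, and the smallest adjusted p of a member was 0.102. Of 534 member differences in these fits 516 had the sign of the main value and 18 had the other sign. With the other sign, Cyp2c23 in ET3x1 against S was −0.02 after quantile normalisation and −0.03 with array weights, Cyp4a1 in ET3x1 against S 0.00244 with array weights, and Cyp2j3 in ET3x1 against S 0.03 without pools A, B and J. In ET3x2 against ET3x1 the leading and the second Cyp4a8 probe set were −0.04 and −0.01 with the actin covariate, and the second was −0.04 without pools A, B and J. Leaving out 1 pool gave −0.05 to 0.08 for Cyp2c23 and −0.09 to 0.02 for Cyp2j3 in ET3x1 against S, −0.03 to 0.04 for Cyp2j4 in ET3x2 against S, and −0.01 to 0.09 for the leading and −0.04 to 0.15 for the second Cyp4a8 probe set and −0.02 to 0.07 for Ephx2 in ET3x2 against ET3x1. The cause was not tested.

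Of the 64 other pathway genes, 0 were called in each comparison in the main fit and 0 to 1 in each without 1 pool. These were Ptgis in ET3x1 against S without pool H (adjusted p = 0.0293) and in ET3x2 against ET3x1 without pool H (0.0306), Scnn1b in ET3x2 against ET3x1 without pool F (0.0478), and Slc12a1 in ET3x2 against S without pool D (0.0365). In the same order, these fits called 79, 284, 488 and 167 of all 21799 probe sets. In ET3x2 against S 3 were called with array weights (Slc12a1, Cyp2e1 and Acadm) and 2 with the actin covariate (Slc12a1 and Cyp2e1). Beside these stood 419 and 432 calls over all 21799 probe sets. In ET3x2 against ET3x1 7 were called with array weights (Acsl1, Cyp2c11, Cyp2e1, Ptges3, Ptgis, Scnn1b and Slc12a1). With the actin covariate 3 were called there (Slc12a1, Acsl1 and Cyp2e1). Beside these stood 1658 and 502 calls over all 21799 probe sets, so that calls rose outside the pathway too. The pathway calls count genes and the others count probe sets, so whether the pathway rose more or less than the rest was not tested. Over all probe sets the calls numbered 96, 75 and 323 in the main fit and 41 to 215, 17 to 432 and 133 to 1658 over the alternatives, so that the share of calls set beside the members depends on these settings. No paired analysis was possible because the pool letters differ between strains.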
